A study of Mus musculus with 13 samples.

Results

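The genes described here are 10 Wnt targets and crypt base genes of the mouse colon epithelium, chosen by name from the 32285 gene rows of the deposited matrix: Lgr5, Ascl2, Smoc2, Axin2, Rnf43, Znrf3, Ephb2, Ephb3, Sox9 and Cd44. All 10 were in the table. They were followed across cycling, goblet, distal and proximal cells, and between germ-free mice and antibiotic-treated mice. Germ-free cells came from C57BL/6J mice raised without microbes, labelled batch2, with no treatment named. Antibiotic cells came from wild type C57BL/6J mice whose treatment is labelled Antibiotic, with no agent, dose or duration named, and are labelled batch1. The labels list 2 germ-free and 3 antibiotic cDNA libraries of a droplet 3′ assay (10x Chromium). Whole colons were stripped with EDTA and dispersed with Dispase and DNase, cells were pooled within each condition, and FACS then took CD44-positive and CD44-negative epithelial cells (EPCAM-positive and CD45-negative) in equal numbers. Control mice and the barcode libraries were not analysed here.

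In the colon, Wnt ligands bind Frizzled receptors with the co-receptors Lrp5 and Lrp6, which stops the Axin and Apc complex from marking beta-catenin for destruction. Beta-catenin then joins TCF factors on target genes. The signal is strongest at the crypt base, where stem cells sit, and weakens as cells move up and differentiate. R-spondins raise it by binding Lgr receptors and taking the ligases Rnf43 and Znrf3 off the cell surface, where these ligases otherwise remove Frizzled. Several members are therefore both targets and regulators of the pathway.

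Mice of a condition were pooled, and each pool has its own batch label. Condition and batch therefore cannot be told apart, and no test between conditions was possible. Cell names divide the pools into germ-free cell sets 3 and 4 and antibiotic cell sets 1, 2 and 3. The germ-free numbers differ from the library numbers in the labels, 6 and 7, so cell sets are not called libraries. The antibiotic sets shared cell barcodes. Sets 1 and 2 had 315 barcodes in common, sets 2 and 3 had 501, and sets 1 and 3 had 48, while neither germ-free set shared any. The deeper copy held a median of 16.1, 9.73 and 27.8 times the UMI (unique molecules) of the shallower one in these pairs. Profiles of copies correlated at a median r of 0.30, 0.33 and 0.05 across genes, against -0.01, -0.00 and -0.06 for neighbouring barcodes. The deepest copy of each barcode was kept, which left 768 germ-free cells with 3100880 UMI and 2578 antibiotic cells with 35287816 UMI, 3346 of the 4183 deposited cells. Median UMI per cell were 1045 and 4682 in the germ-free sets and 7186, 9740 and 12997 in the antibiotic sets. Mitochondrial genes took 18.7% of germ-free and 12.4% of antibiotic UMI. Epcam stood at 1717 CPM (UMI per 1000000 UMI) in germ-free and 1474 CPM in antibiotic cells, against 0.322 and 0.567 CPM for Ptprc (CD45) and 0 and 0.0283 CPM for Col1a1, as the epithelial label says. The 10 immune markers summed to 1.29 CPM in germ-free and 1.02 CPM in antibiotic cells, with 6 and 3 of them at 0.

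The members lie on 7 chromosomes. In mm10 coordinates of the GENCODE vM21 annotation, Axin2, Rnf43, Znrf3 and Sox9 are all on chromosome 11. Axin2 spans 108920349 to 108950783 and Rnf43 87662722 to 87735539, both on the plus strand, Znrf3 spans 5276324 to 5444847 on the minus strand, and Sox9 spans 112782224 to 112787760 on the plus strand. Lgr5 is on chromosome 10 (115450311 to 115587780, minus), Ascl2 on chromosome 7 (142966829 to 142969264, minus) and Smoc2 on chromosome 17 (14279506 to 14404790, plus). Ephb2 is on chromosome 4 (136647539 to 136835988, minus), Ephb3 on chromosome 16 (21204755 to 21223305, plus) and Cd44 on chromosome 2 (102811141 to 102901665, minus). Values are whole-gene counts, so exons, introns and UTRs are not separated. Overlapping genes had few UMI in the same cells: A930009A15Rik, opposite Lgr5, had 4, against 350 for Lgr5, and 4930474M22Rik, opposite Smoc2, had 8, against 459.

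Promoters of 6 members were in the RefSeq table for GRCm38.p6. Axin2 and Cd44 are shown with the 250 bases upstream of their annotated start, because both are known Wnt targets and yet their levels took different courses between distal and proximal cells below. A TCF search used the letters CTTTGAT and CTTTGTT on both strands, which 3.2% and 5.0% of 32851 promoters hold, or 8.1% for either. None of the 7 promoters of these 6 members held a match, so no bases are set in capitals. The sequences run 5′ to 3′ on the gene's own strand.
Axin2 promoter, chr11:108920099-108920348, plus strand: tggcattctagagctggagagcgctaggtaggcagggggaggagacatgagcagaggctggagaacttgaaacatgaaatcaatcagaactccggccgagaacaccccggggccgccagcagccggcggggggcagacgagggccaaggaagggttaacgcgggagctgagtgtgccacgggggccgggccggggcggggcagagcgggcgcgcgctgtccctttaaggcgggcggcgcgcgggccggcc
Cd44 promoter, chr2:102901666-102901915, minus strand: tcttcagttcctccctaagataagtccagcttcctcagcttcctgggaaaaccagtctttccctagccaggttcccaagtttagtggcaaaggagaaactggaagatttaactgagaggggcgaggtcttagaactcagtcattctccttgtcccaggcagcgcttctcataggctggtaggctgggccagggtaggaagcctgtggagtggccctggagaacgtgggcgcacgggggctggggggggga

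Cells were gated by marker sums that hold no member. A cell passed with at least 3 marker UMI and a marker sum per 10000 UMI at or above a level. The level was 50 for goblet markers (such as Muc2 and Fcgbp), 20 for S and G2/M genes, 10 for distal and 25 for proximal colon markers. The goblet gate came first, then the cycling gate, then the distal and proximal gates with neither ahead. This gave 64 germ-free and 171 antibiotic cycling cells, 95 and 154 goblet cells, 101 and 258 distal cells, and 123 and 823 proximal cells. The other 385 germ-free and 1172 antibiotic cells were ungated, among them 12 germ-free and 25 antibiotic cells that passed both region gates. Distal and proximal cells together (224 germ-free and 1081 antibiotic cells) are called differentiated, as a name for this pair of gates. Proximal cells were 123 of the 224 and 823 of the 1081. Ratios over differentiated cells are thus not like for like between conditions, and the part of this in them was not tested. The 9 differentiated colonocyte markers summed to 4229 CPM in distal, 7475 CPM in proximal and 3735 CPM in ungated germ-free cells, and to 4050, 8387 and 3962 CPM in antibiotic cells. A contrast between gates was called when it was at least 2-fold the same way in all 5 cell sets, on log2(CPM + 1), for a gene with at least 100 UMI in the comparison. Depth moved with the gates: median UMI in cycling, goblet, distal and proximal cells were 2659, 2435, 4101 and 3208 in germ-free and 7601, 8122, 17784 and 13884 in antibiotic cells. Intervals are 95% and cover counting error only.

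Cycling cells had more RNA of all 8 testable members than differentiated cells in each of the 5 cell sets, and 5 of the 8 were at least 2-fold higher in every set: Smoc2, Rnf43, Znrf3, Ephb2 and Cd44. Of all 9876 genes tested, 4.90% were called higher and 2.59% lower, and no member was lower. The median log2 ratio of the members was 2.37 in germ-free and 2.89 in antibiotic cells, beside 0.18 and 0.34 over all genes tested. The 3 uncalled members, Lgr5, Axin2 and Sox9, each fell short in germ-free cell set 3, the shallowest. Without that set 8 of 8 passed. The passes in that set rested on few UMI too. Its 22 cycling cells held 4 UMI each of Smoc2, Rnf43 and Znrf3, 5 of Ephb2 and 3 of Cd44.

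Lgr5, the R-spondin receptor that marks crypt base stem cells, had 26.9 CPM in cycling and 3.87 CPM in differentiated germ-free cells, a ratio of 6.96 (1.94 to 30.9). In antibiotic cells it had 68.3 CPM in cycling and 2.10 CPM in differentiated cells, a ratio of 32.6 (22.7 to 47.6). Its log2 ratios in germ-free sets 3 and 4 were 0.74 and 3.12, and in antibiotic sets 1, 2 and 3 they were 4.22, 3.50 and 5.21. The germ-free value rested on 9 UMI in 5 of 64 cycling cells, so its counting error is wide. In antibiotic cycling cells, 29 of 125 Lgr5 UMI came from 1 cell of set 1, which the counting interval does not take into account. An Lgr5 UMI was found in 7.81% of germ-free and 15.2% of antibiotic cycling cells. In proximal cells it was 0 of 123 in germ-free mice, which by the limit of 3 counts allows a share of up to 2.44% of cells with a UMI, and 1.82% (15 of 823) in antibiotic mice, at the medians of depth given above.

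Smoc2, a secreted matrix protein enriched in Lgr5-positive stem cells, was higher in cycling cells in every set. It had 44.9 CPM in cycling and 4.84 CPM in differentiated germ-free cells, a ratio of 9.28 (3.21 to 32.6), and 68.9 and 3.38 CPM in antibiotic cells, a ratio of 20.4 (15.0 to 27.9). The log2 ratio in antibiotic cells was 4.0 with all 3 sets and 4.64 without set 2, the lowest of them at 2.34. Ascl2, the transcription factor that maintains the stem cell state, had too few UMI to test. Its 18 UMI in antibiotic cycling cells made 9.84 CPM, against 0.614 CPM in differentiated cells, and only 2 UMI came from germ-free cycling cells.

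The negative regulators showed the same order. Rnf43 had 120 CPM in cycling and 23.2 CPM in differentiated germ-free cells, a 5.16-fold difference (3.03 to 8.94), and 164 and 30.1 CPM in antibiotic cells, 5.45-fold (4.73 to 6.27). Its 5 log2 ratios lay between 2.07 and 2.97, with the germ-free sets inside the range of the antibiotic ones. Znrf3 had 117 CPM in cycling and 30.9 CPM in differentiated germ-free cells, 3.77-fold (2.30 to 6.22), and 209 and 26.1 CPM in antibiotic cells, 8.02-fold (7.01 to 9.18). Without germ-free set 4 the germ-free log2 ratio of Znrf3 was 1.18 in place of 1.88. Axin2, the scaffold of the destruction complex that is itself a Wnt target, had 41.9 CPM in cycling and 8.70 CPM in differentiated germ-free cells, and 54.1 and 6.81 CPM in antibiotic cells, a ratio of 7.95 (6.07 to 10.4) in the second pair. It missed the call because germ-free set 3, with 1 Axin2 UMI in 22 cycling cells, gave a log2 ratio of 0.74.

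Ephb2, an ephrin receptor that helps to place cells along the crypt, was higher in cycling cells at 159 CPM, against 23.2 CPM in differentiated cells, in germ-free mice, and at 210 against 21.8 CPM in antibiotic mice. The ratios were 6.83 (4.14 to 11.6) and 9.63 (8.37 to 11.1). Ephb3, its close relative, was not tested. It had 20.8 CPM in cycling and 1.79 CPM in differentiated antibiotic cells, and in germ-free cells 5 UMI in the cycling gate and none in the differentiated gates. Sox9, a transcription factor of crypt progenitors, had 123 CPM in cycling and 33.8 CPM in differentiated germ-free cells, a ratio of 3.62 (2.25 to 5.86), and 82.0 and 22.3 CPM in antibiotic cells, a ratio of 3.68 (3.03 to 4.43). The ratios were alike in size between conditions, but on different levels and on differentiated cells with unlike shares of proximal cells. Germ-free set 3 alone gave a log2 ratio of 0.19.

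Cd44, the hyaluronan receptor whose protein was the sort marker, was higher in cycling cells as well. It had 92.7 CPM in cycling and 16.4 CPM in differentiated germ-free cells, 5.64-fold (3.03 to 10.9), and 108 and 37.8 CPM in antibiotic cells, 2.86-fold (2.43 to 3.35). The antibiotic ratio was the smallest of the members tested there. The sort set the numbers of CD44-positive and CD44-negative cells, and the table does not mark which cell came from which sort.

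**Figure D1:**
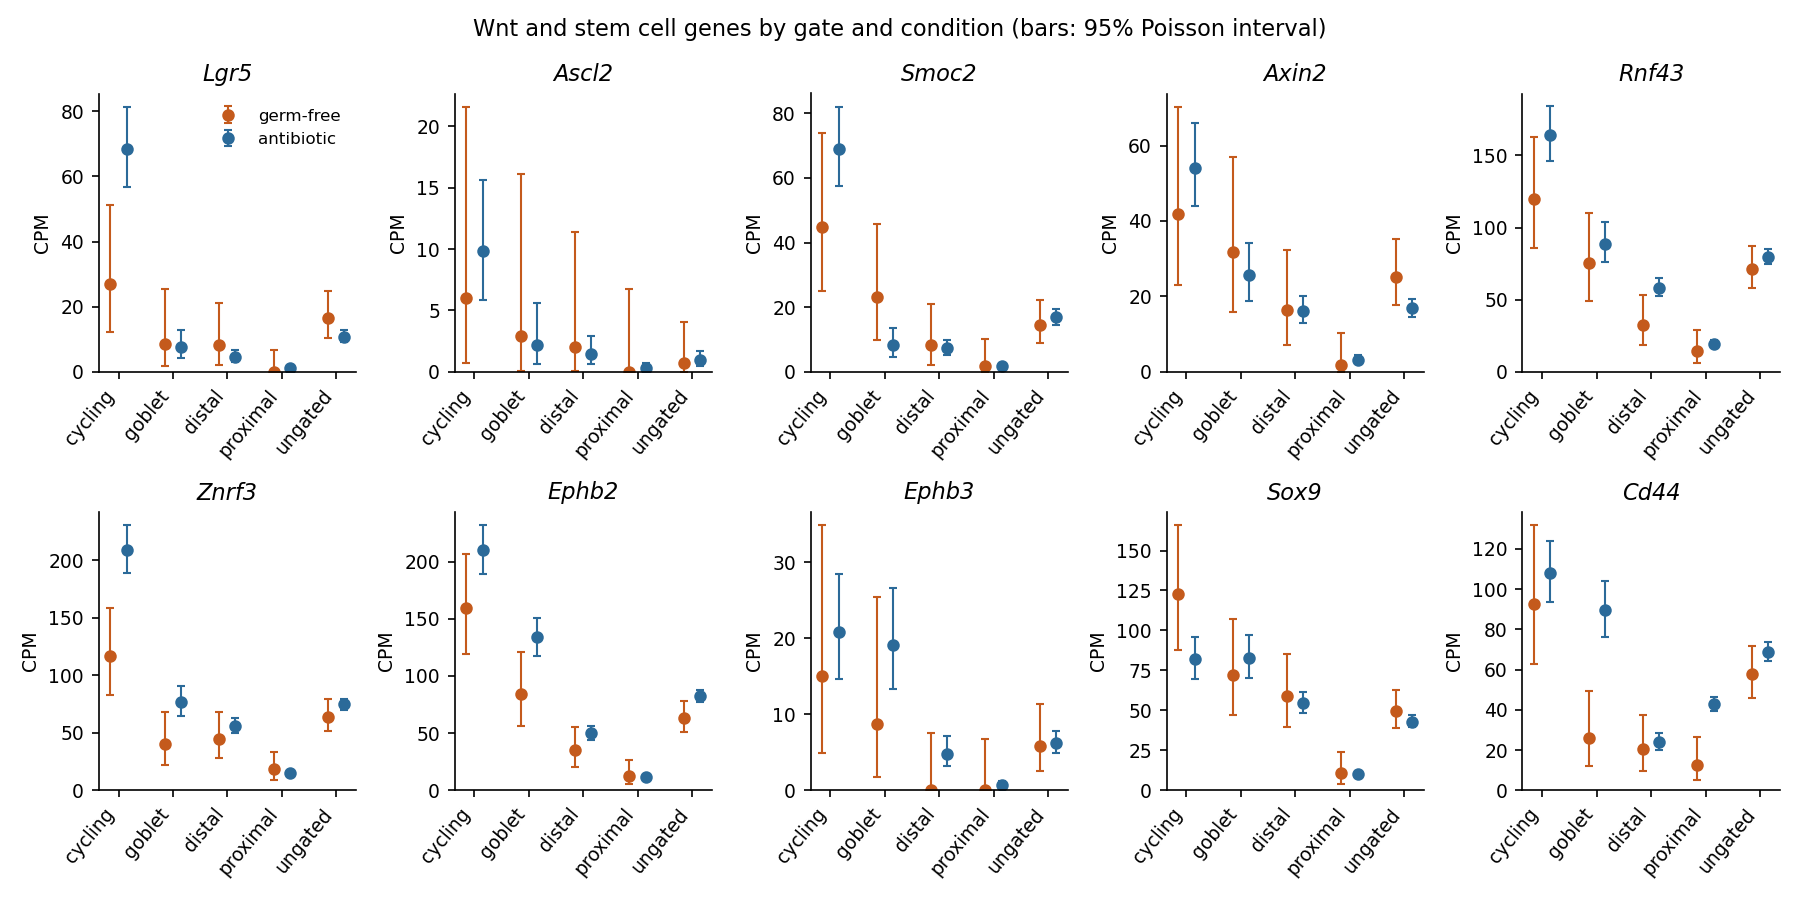
Summed CPM (linear y axis) of each member in cycling, goblet, distal, proximal and ungated cells, with germ-free cells in orange and antibiotic cells in blue; bars are 95% Poisson intervals for counting error. The proximal gate is the lowest of the 5 for every member in both conditions except Cd44 in antibiotic cells, where distal cells had 24.2 CPM and proximal cells 43.0 CPM, and Ephb3 in germ-free cells, where both region gates are at 0.

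Antibiotic cells had enough UMI to order the gates. Ephb2 was the member whose 5 intervals were all separate there, with 210 CPM in cycling, 134 in goblet, 82.4 in ungated, 49.9 in distal and 11.2 in proximal cells. Rnf43 and Znrf3 kept this order, with goblet and ungated cells overlapping. Lgr5 and Smoc2 differed in that ungated cells came second, at 10.8 and 16.9 CPM, ahead of goblet cells at 7.64 and 8.18 CPM, though the Lgr5 intervals of these neighbours overlapped. Sox9 was the member that was not at its highest in cycling cells, with 82.0 CPM in cycling and 82.9 CPM in goblet cells, and overlapping intervals. In germ-free cells every neighbouring pair overlapped for 7 of the 10 members, the exceptions being Rnf43, Znrf3 and Sox9.

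Ephb2 was the 1 of 9 tested members that was at least 2-fold higher in cycling than in ungated cells in every set, with ratios of 2.50 (1.74 to 3.55) in germ-free and 2.55 (2.26 to 2.87) in antibiotic cells. Of 9456 genes tested, 2.93% were called higher and 1.22% lower. Lgr5 had a ratio of 1.62 (0.661 to 3.64) in germ-free and 6.30 (4.89 to 8.11) in antibiotic cells, and Cd44 of 1.61 (1.03 to 2.46) and 1.57 (1.34 to 1.84). Both had more RNA in cycling than in ungated cells in all 5 sets, short of 2-fold in at least 1 of them. Of the 23 Lgr5 UMI in germ-free ungated cells, 15 came from 1 cell of set 4. The counting interval does not take this into account, so the germ-free Lgr5 ratio depends on that cell.

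Within the cycling gate, cells with more S phase RNA could be set beside cells with more G2/M RNA, 15 and 49 germ-free cells and 35 and 136 antibiotic cells. No cell set had 20 cells of both kinds, so nothing was called. In antibiotic cells Smoc2 had 75.6 CPM in S and 67.3 CPM in G2/M cells, a ratio of 1.12 (0.700 to 1.74), and Cd44 had 122 and 105 CPM, a ratio of 1.16 (0.807 to 1.64). The interval left out 1 for Sox9 in antibiotic cells, with 116 CPM in S and 74.1 CPM in G2/M cells, a ratio of 1.57 (1.07 to 2.28), and for Cd44 in germ-free cells, with 15.7 CPM in S cells, from 1 UMI, and 111 CPM in G2/M cells, a ratio of 0.141 (0.00347 to 0.851). The other 8 members had intervals that include 1 in both conditions. Region could not be compared within cycling cells, since only 5 germ-free and 9 antibiotic cycling cells passed the distal gate and 3 and 1 the proximal gate.

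Goblet cells, the mucus-secreting cells of the crypt, also had more RNA of several members than differentiated cells, with 1 of 6 tested members called, Rnf43. The share of all 9734 tested genes called higher was 3.71%, and 3.11% were called lower. Rnf43 had 75.2 CPM in goblet and 23.2 CPM in differentiated germ-free cells, 3.24-fold (1.79 to 5.90), and 88.9 and 30.1 CPM in antibiotic cells, 2.96-fold (2.47 to 3.52). Without germ-free cell set 3, 4 members passed. In that set the Rnf43 call rested on 4 UMI in 42 goblet cells.

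The other 5 tested members had ratios above 1 in both conditions but missed 2-fold in at least 1 set. Ephb2 had 83.9 CPM in goblet and 23.2 CPM in differentiated germ-free cells, and 134 and 21.8 CPM in antibiotic cells, a ratio of 6.13 (5.22 to 7.19) in the antibiotic pair. Axin2 had ratios of 3.66 (1.38 to 9.99) in germ-free and 3.77 (2.64 to 5.29) in antibiotic cells. Sox9 had ratios of 2.14 (1.23 to 3.67) and 3.72 (3.07 to 4.48) in the same order. These 3 members exceeded 1 in all 5 sets. Without germ-free set 4 the germ-free log2 ratio was 0.17 for Axin2 in place of 1.76 and 0.57 for Ephb2 in place of 1.81. Cd44 also exceeded 1 in all 5 sets, with ratios of 1.58 (0.622 to 3.76) in germ-free and 2.37 (1.99 to 2.81) in antibiotic cells. Znrf3 exceeded 1 in 4 of 5 sets, with ratios of 1.31 (0.645 to 2.52) in germ-free and 2.95 (2.43 to 3.56) in antibiotic cells. Lgr5 and Smoc2 were not tested, and germ-free set 3 and antibiotic set 3 had less of both in goblet than in differentiated cells. Ephb3, not tested either, had 19.1 CPM in goblet and 1.79 CPM in differentiated antibiotic cells, close to its 20.8 CPM in cycling cells.

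Markers of other cells moved with the goblet gate. The 3 deep crypt secretory markers (Reg4, Kit and Spink1) summed to 3105 CPM in germ-free and 2880 CPM in antibiotic goblet cells, against 85.9 and 107 CPM in distal cells, with none at 0 in the goblet gate. The 5 Paneth markers summed to 136 CPM in germ-free goblet cells, with 2 of 5 at 0, and 1282 CPM in antibiotic goblet cells, with none at 0. The antibiotic sum came from set 2, with 2309 of its 2350 UMI and 3708 CPM, against 32.7 and 34.6 CPM in sets 1 and 3. Summed G2/M genes were 454 CPM in germ-free and 360 CPM in antibiotic goblet cells, against 178 and 112 CPM in distal cells. Their part in the member values was not tested.

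Between the regions, distal cells had more RNA of 3 of the 6 tested members than proximal cells in every set by 2-fold: Axin2, Znrf3 and Sox9. Of 9355 genes tested, 2.82% were called higher and 2.48% lower. The median log2 ratio of the members was 1.31 in germ-free and 1.94 in antibiotic cells, beside 0.09 and 0.19 over all genes. In germ-free set 3 the 3 calls rested on few UMI. Axin2 had 2 distal and 0 proximal UMI there, and Znrf3 and Sox9 had 4 and 2 each.

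Sox9 showed the clearest contrast, with 59.3 CPM in distal and 11.0 CPM in proximal germ-free cells, 5.39-fold (2.20 to 15.9), and 54.7 and 10.0 CPM in antibiotic cells, 5.46-fold (4.45 to 6.72). The level within each gate differed between conditions by less than counting error. Its log2 ratio was 1.29 and 2.64 in germ-free sets 3 and 4, and 2.54, 2.33 and 2.36 in antibiotic sets 1, 2 and 3. Axin2 had 16.4 CPM in distal and 1.83 CPM in proximal germ-free cells, the second from a single UMI, and 16.2 and 3.25 CPM in antibiotic cells, 4.99-fold (3.45 to 7.29). Znrf3 had 45.0 and 18.3 CPM in germ-free cells, 2.45-fold (1.12 to 5.81), and 56.0 and 14.7 CPM in antibiotic cells, 3.80-fold (3.17 to 4.55). Without germ-free set 4 the germ-free log2 ratio was 5.20 for Axin2 in place of 2.62 and 1.29 for Sox9 in place of 2.33.

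Rnf43 and Ephb2 missed the call through 1 germ-free set each. Rnf43 had 32.7 CPM in distal and 14.7 CPM in proximal germ-free cells, and 58.4 and 19.3 CPM in antibiotic cells, a ratio of 3.02 (2.56 to 3.57), with a log2 ratio of 0.80 in germ-free set 4. Ephb2 had 34.8 and 12.8 CPM in germ-free cells, and 49.9 and 11.2 CPM in antibiotic cells, a ratio of 4.47 (3.66 to 5.48), with a log2 ratio of -0.65 in germ-free set 3.

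Cd44 did not follow the other members. In antibiotic cells it had 24.2 CPM in distal and 43.0 CPM in proximal cells, a ratio of 0.563 (0.462 to 0.681), and its log2 ratios were -1.65, -1.08 and -0.52 in sets 1, 2 and 3. In germ-free cells it had 20.5 CPM in distal and 12.8 CPM in proximal cells, a ratio of 1.59 (0.548 to 4.93), with log2 ratios of 5.20 in set 3, where proximal cells had no Cd44 UMI, and 0.31 in set 4. All 3 antibiotic sets thus had less Cd44 in distal than in proximal cells and both germ-free sets had more, from 10 distal and 7 proximal UMI. A difference between the conditions was not tested.

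The gates differed in more than region. Differentiated colonocyte markers summed to less in distal than in proximal cells, as given above, with none of the 9 at 0. Krt20, a keratin of surface colonocytes, had 164 CPM in distal, 647 CPM in proximal and 249 CPM in ungated germ-free cells, and 134, 919 and 259 CPM in antibiotic cells. Sycn alone gave 76.9% of the distal list's UMI in germ-free and 84.4% in antibiotic cells. A distal gate without Sycn held 21 germ-free and 42 antibiotic cells, from 5 to 19 per cell set, so no set reached 20 cells and no call could be made. The part of these differences in the member values was not tested.

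**Figure D2:**
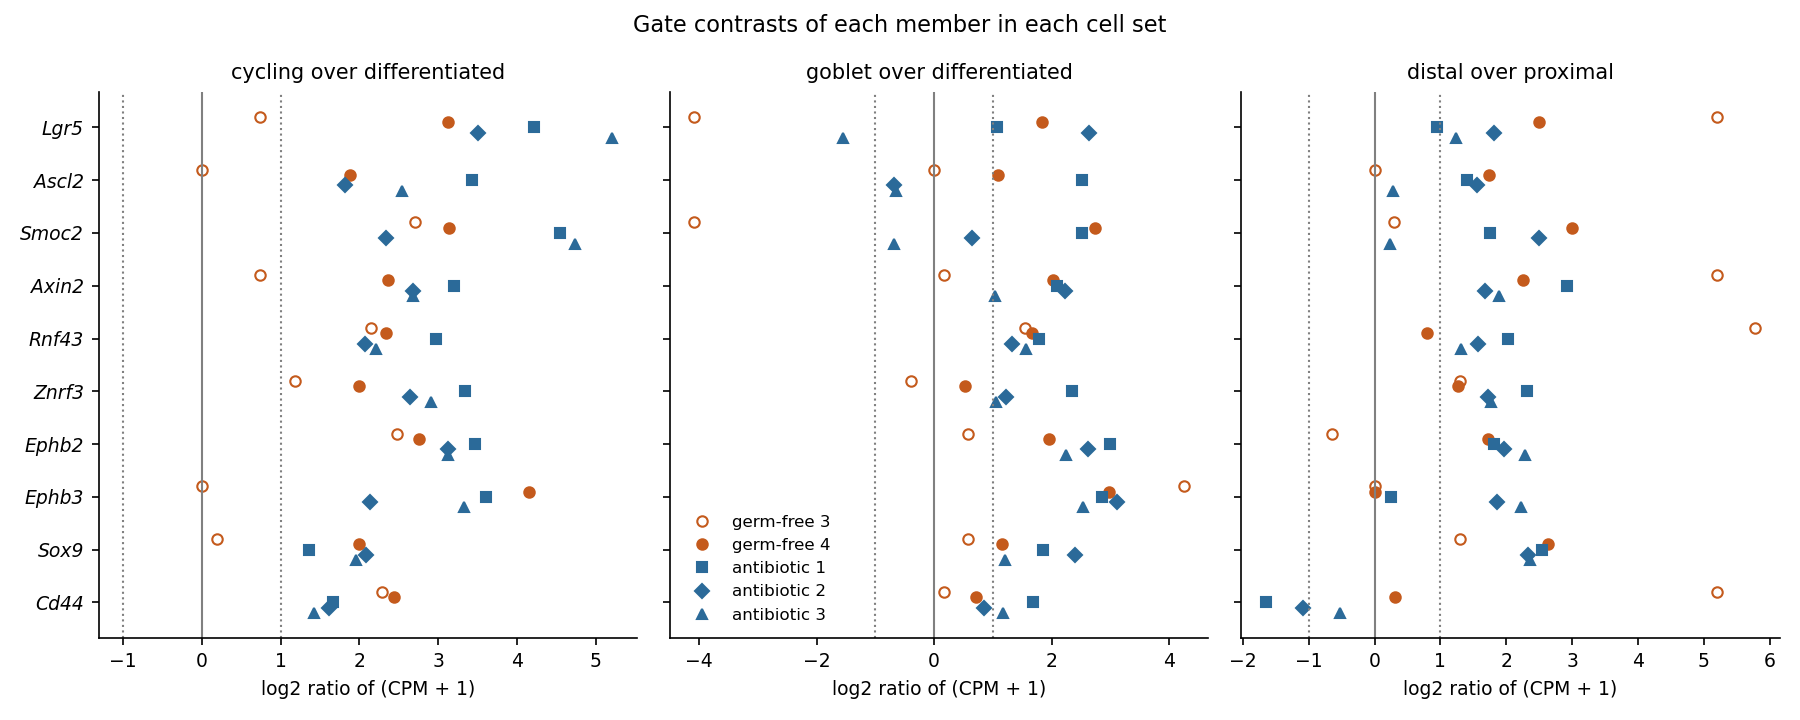
Log2 ratio of CPM + 1 (x axis) of each member in cycling over differentiated, goblet over differentiated and distal over proximal cells, 1 point per cell set; open circles are germ-free set 3, filled circles germ-free set 4, and blue squares, diamonds and triangles antibiotic sets 1, 2 and 3. Dotted lines mark 2-fold; all points of Rnf43 lie right of it in the first and second panels, and the antibiotic points of Cd44 lie left of 0 in the third.

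Cells that held an Lgr5 UMI were set beside cells without one, in antibiotic mice, where 106 of 2578 cells held one. Their depth was alike, with medians of 10063 UMI in cells with Lgr5 and 10026 UMI in cells without. These values describe cells chosen by a measured gene, and no call was made. Smoc2 had 140 CPM in cells with an Lgr5 UMI and 6.12 CPM in cells without, a ratio of 23.0 (18.8 to 28.0), and Ascl2 had 16.5 and 0.650 CPM, a ratio of 25.4 (13.6 to 47.5). These are the other stem cell genes of the list. Ephb3 had a ratio of 7.54 (5.26 to 10.6), Axin2 of 6.10 (4.84 to 7.62) and Rnf43 of 3.64 (3.19 to 4.14). Sox9, Znrf3 and Ephb2 had ratios of 2.41, 2.20 and 2.09, and Cd44 the smallest, 1.65 (1.37 to 1.98), with 88.1 CPM in cells with Lgr5 and 53.3 CPM in cells without. The gates were mixed in this split. Within ungated antibiotic cells, 51 with and 1121 without an Lgr5 UMI at medians of 6224 and 7542 UMI, the ratios were 1.97 (1.52 to 2.53) for Znrf3, 2.06 (1.61 to 2.60) for Ephb2, 1.59 (1.08 to 2.28) for Sox9 and 1.52 (1.11 to 2.03) for Cd44.

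Cycling cells were also divided in this way, 26 with and 145 without an Lgr5 UMI, at medians of 9715 and 7346 UMI. Axin2 had 142 CPM in cycling cells with Lgr5 and 34.7 CPM in those without, a ratio of 4.09 (2.70 to 6.19), and Smoc2 had 166 and 47.4 CPM, a ratio of 3.51 (2.42 to 5.06). Rnf43 had a ratio of 2.33 (1.82 to 2.98) and Cd44 of 1.79 (1.29 to 2.45). Znrf3 and Ephb2 had ratios near 1, at 0.892 (0.669 to 1.17) and 0.789 (0.585 to 1.05). Both were called higher in cycling than in differentiated cells, but within cycling cells no difference with the Lgr5 UMI was detectable at this depth. The intervals of Sox9 and Ephb3 included 1 as well, at ratios of 1.43 (0.955 to 2.10) and 2.09 (0.961 to 4.29). Ascl2 had a ratio of 3.62 (1.24 to 10.2), from 8 and 10 UMI.

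The members were compared between germ-free mice, raised without microbes, and mice labelled as antibiotic-treated, whose microbes were not measured here. Over all cells, 3 of 9 tested members were higher in germ-free cells, with both germ-free sets above all 3 antibiotic sets: Lgr5, Smoc2 and Sox9. None was lower. This share is near the background, since 24.8% of 11015 tested genes were higher and 23.7% lower by the same rule, and no member differed by 2-fold. The median log2 ratio of the 9 members was 0.11, beside 0.03 over all genes. Fewer cells of a type and less RNA per cell cannot be told apart in these sums over all cells.

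Sox9 had 57.1 and 54.5 CPM in germ-free sets 3 and 4, and 39.1, 35.4 and 34.1 CPM in antibiotic sets 1, 2 and 3. The groups did not overlap, and the ratio was 1.54 (1.30 to 1.81). Lgr5 had 14.9 and 12.2 CPM in the germ-free sets and 11.6, 7.14 and 8.66 CPM in the antibiotic sets, a ratio of 1.43 (0.996 to 2.00). The germ-free Lgr5 value rested on few cells. Of 39 germ-free UMI, 15 (38.5%) came from a single ungated cell of set 4 with 15328 UMI. The richest antibiotic cell, a cycling cell of set 1, gave 29 (9.32%) of 311 UMI. An Lgr5 UMI was found in 2.34% of germ-free and 4.11% of antibiotic cells, at median depths of 2874 and 10026 UMI. With each cell thinned to 1000 UMI, which left out 143 germ-free and 134 antibiotic cells, the shares were 0.800% and 0.941%, so the share of cells did not show the order of the CPM. Means of per-cell values and equal gate shares also gave Lgr5 and Smoc2 negative log2 ratios. Smoc2 had 17.4 and 15.2 CPM in the germ-free sets and 15.0, 11.5 and 10.1 CPM in the antibiotic sets, so the groups nearly touched.

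Axin2 had 12.4 and 23.7 CPM in the germ-free sets and 16.1, 13.3 and 12.7 CPM in the antibiotic sets, and the groups overlapped because the germ-free sets lay on either side of the antibiotic ones. Cd44 had 32.3 and 46.0 CPM in the germ-free sets and 58.8, 41.3 and 62.8 CPM in the antibiotic sets, a ratio of 0.807 (0.674 to 0.960), and antibiotic set 2 fell between the germ-free sets. At 1000 UMI per cell, a Cd44 UMI was found in 4.48% of germ-free and 8.39% of antibiotic cells, against 12.9% and 41.8% without thinning. Rnf43, Znrf3, Ephb2 and Ephb3 had ratios between 0.990 and 1.08 with overlapping groups. Ascl2, with 51 UMI in all, was not tested. The count of members lower in germ-free cells was 3 without germ-free set 4 and 1 without antibiotic set 2.

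**Figure D3:**
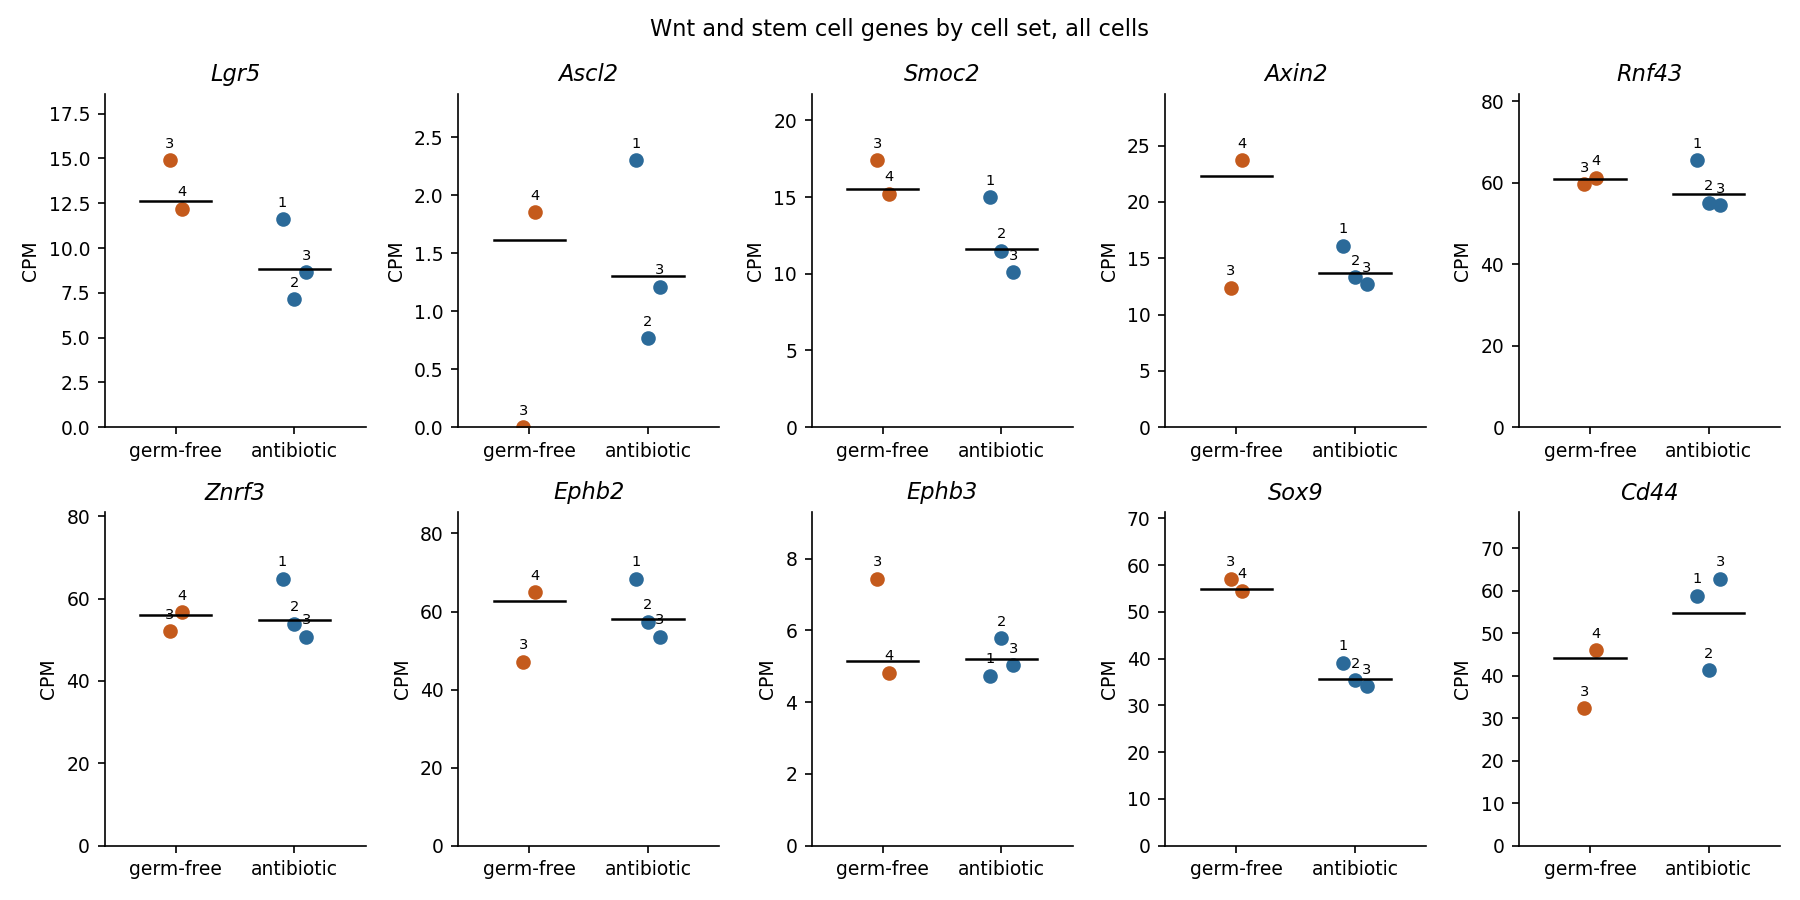
CPM of each member in germ-free cell sets 3 and 4 (orange) and antibiotic cell sets 1, 2 and 3 (blue), with the set number beside each point and the value of the whole condition as a line; the y axes are linear and start at 0. Sox9 is the member whose germ-free sets, at 57.1 and 54.5 CPM, stand farthest from the antibiotic sets, which reach 39.1 CPM.

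Cell make-up differed between the pools. Cycling cells were 8.33% of germ-free and 6.63% of antibiotic cells, goblet cells 12.4% and 5.97%, distal cells 13.2% and 10.0%, and proximal cells 16.0% and 31.9%. The goblet and proximal gates used genes whose level differed between conditions. Summed goblet markers were at 50311 CPM in germ-free and 24573 CPM in antibiotic goblet cells. Summed proximal markers were at 3847 CPM in germ-free and 6352 CPM in antibiotic proximal cells. For this reason the shares are not compared further. Members were therefore also set side by side within each gate, as values with no call.

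Within cycling cells, Lgr5 had 27.3 and 26.9 CPM in the germ-free sets, from 1 and 8 UMI, and 65.8, 32.9 and 108 CPM in the antibiotic sets, a ratio of 0.394 (0.176 to 0.772). The groups did not overlap, but antibiotic set 2 lay closer to the germ-free sets than to antibiotic set 3. In antibiotic set 1, 29 of 38 Lgr5 UMI in cycling cells came from a single cell, so its place above the germ-free sets rested on that cell. Znrf3 had 109 and 118 CPM in the germ-free sets and 256, 167 and 209 CPM in the antibiotic sets, a ratio of 0.557 (0.390 to 0.776). Ephb2, Rnf43 and Cd44 had ratios of 0.755 (0.556 to 1.01), 0.730 (0.511 to 1.02) and 0.857 (0.567 to 1.26). Sox9 was the exception, with 123 CPM in germ-free and 82.0 CPM in antibiotic cycling cells, a ratio of 1.50 (1.03 to 2.13), though germ-free set 3 had 54.6 CPM, below every antibiotic set. Other measures moved too. G2/M genes summed to 3305 CPM in germ-free and 5156 CPM in antibiotic cycling cells, S genes to 1131 and 1352 CPM, and the 11 dissociation response genes to 1846 and 5158 CPM, with median depths of 2659 and 7601 UMI. Their part in these ratios was not tested.

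Cd44 differed most in the goblet and proximal gates. In goblet cells it had 18.0 and 27.6 CPM in the germ-free sets and 116, 49.8 and 106 CPM in the antibiotic sets, a ratio of 0.291 (0.131 to 0.566). In proximal cells it had 0 and 14.7 CPM in the germ-free sets and 40.5, 33.1 and 51.4 CPM in the antibiotic sets, a ratio of 0.299 (0.120 to 0.619). The groups did not overlap in either gate, with 9 and 7 germ-free UMI behind the values. The markers of both gates differed in level between conditions, as given above, and their part in these ratios was not tested. In distal cells the ratio was 0.846 (0.396 to 1.61), in ungated cells 0.839 (0.658 to 1.06) and in cycling cells 0.857, so their intervals include 1. The Cd44 ratio in goblet cells stayed below 1 under every alternative run, with log2 values from -2.41 to -1.09 in place of -1.74, and from -2.25 to -1.54 without 1 cell set. In proximal cells it ranged from -5.22 to -1.20 in place of -1.67, and was -5.46 without germ-free set 4.

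Of the remaining members, Znrf3 and Ephb2 had ratios of 0.527 (0.281 to 0.913) and 0.628 (0.412 to 0.925) in goblet cells, and Rnf43 of 0.560 (0.316 to 0.924) in distal cells. Rnf43 had 53.8 and 30.0 CPM in the germ-free and 69.6, 59.6 and 53.8 CPM in the antibiotic distal sets, and its log2 ratio was -0.12 in place of -0.82 without germ-free set 4. Ephb2 had 36.0 and 93.1 CPM in the germ-free and 163, 138 and 112 CPM in the antibiotic goblet sets, and its log2 ratio was -1.86 in place of -0.67 without germ-free set 4. Smoc2 had 23.2 CPM in germ-free and 8.18 CPM in antibiotic goblet cells, a ratio of 2.83 (1.04 to 7.11) from 8 germ-free UMI, all in set 4. In ungated cells Axin2 had 25.2 CPM in germ-free and 16.8 CPM in antibiotic cells, a ratio of 1.50 (1.02 to 2.16), with 5.40 CPM in germ-free set 3 and 28.3 CPM in set 4. Sox9, 1.54-fold over all cells, had ratios of 0.872 (0.547 to 1.34) in goblet, 1.08 (0.714 to 1.59) in distal, 1.10 (0.396 to 2.45) in proximal and 1.16 (0.887 to 1.49) in ungated cells. With equal gate shares its log2 ratio over all cells was 0.19 in place of 0.61.

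**Figure D4:**
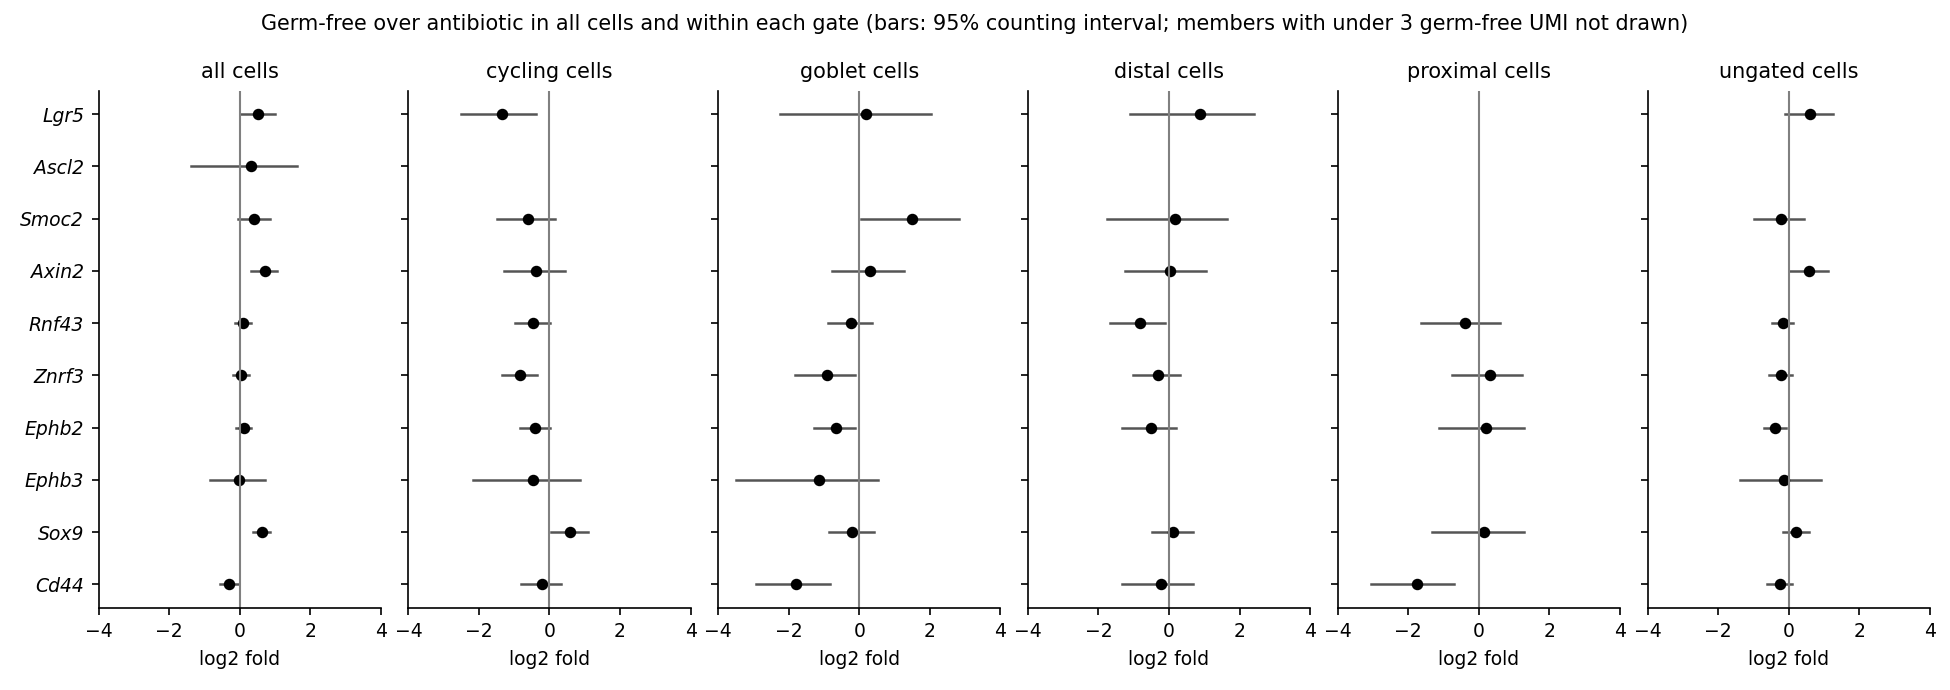
Log2 fold, germ-free over antibiotic (x axis), of each member in all cells and within each gate; bars are 95% conditional binomial intervals for counting error, and members with fewer than 3 germ-free UMI in a gate are not drawn. Cd44 lies left of 0 with its whole interval in goblet and proximal cells, at ratios of 0.291 and 0.299, and Lgr5 lies left of 0 in cycling cells and right of it in all cells.

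Other genes of the pathway were read from 7 lists of 114 genes. Of 62 with enough UMI in all cells, 20 were higher and 17 lower in germ-free cells, shares again near the background, and their median log2 ratio was 0.10. Ligands were hardly measured, as 16 of 17 had under 100 UMI. Wls, which carries Wnt proteins to the surface, was higher at 126 CPM in germ-free and 93.9 CPM in antibiotic cells. Among 13 receptors, 5 were higher and 3 lower. Lgr4, another R-spondin receptor, was higher at 244 CPM in germ-free and 218 CPM in antibiotic cells, and so was the co-receptor Lrp6 at 165 and 133 CPM. Fzd1 and Fzd8 passed the 2-fold rule on CPM, at 8.71 and 10.3 CPM in germ-free and 3.88 and 4.85 CPM in antibiotic cells. By that rule 2.18% of all tested genes were higher and 3.30% lower. Ror1 had 92.2 and 102 CPM with overlapping sets.

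Of 2 inhibitors tested, Kremen2, a Dkk receptor, was lower at 3.87 CPM in germ-free and 7.42 CPM in antibiotic cells, and Kremen1 had 16.8 and 14.8 CPM with overlapping sets. Of 13 genes in the list of destruction complex genes and transducers, 6 were higher and 2 lower. The higher ones were Apc, Axin1, Tnks2, Dvl1, Dvl2 and Dvl3, so they were not all parts of the complex. Csnk1a1, a kinase that primes beta-catenin for destruction, was lower at 365 CPM in germ-free and 495 CPM in antibiotic cells. Ctnnb1, beta-catenin itself, had 298 and 273 CPM and Gsk3b 173 and 175 CPM, and their sets overlapped. Of 9 TCF factors and cofactors, 1 was higher and 4 lower, among them Tcf7l2, the main TCF of the gut epithelium, at 569 CPM in germ-free and 720 CPM in antibiotic cells. Hdac1 was lower at 72.6 and 81.3 CPM, and Tle4, a co-repressor, had 326 and 357 CPM with overlapping sets. Of 6 other Wnt targets, 1 was higher and none lower, and Cdx1, Met and Ccnd1 had overlapping sets at 142, 68.0 and 23.2 CPM in germ-free and 143, 61.8 and 25.6 CPM in antibiotic cells.

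The 18 other crypt base genes held the largest condition difference of the lists. Olfm4, a secreted protein that marks stem cells of the small intestine, was higher in germ-free cells, with 223 and 103 CPM in germ-free sets 3 and 4 and 10.7, 23.5 and 12.5 CPM in antibiotic sets 1, 2 and 3. It was higher in cycling than in differentiated cells of both conditions, with 335 CPM in germ-free and 74.3 CPM in antibiotic cycling cells. The other gates also had more Olfm4 in germ-free cells. The values were 211 and 14.2 CPM in goblet and 49.1 and 9.12 CPM in distal cells. They were 45.8 and 7.13 CPM in proximal and 97.3 and 20.3 CPM in ungated cells. Slc12a2, an ion transporter of crypt cells, was higher at 254 CPM in germ-free and 108 CPM in antibiotic cells. In cycling cells it had 455 and 454 CPM, and in goblet cells 848 and 446 CPM. Of the 18, 6 were higher and 7 lower, among them Msi2 at 213 CPM in germ-free and 246 CPM in antibiotic cells and Prom1 at 195 and 209 CPM, while Itgb1 had overlapping sets at 229 and 212 CPM.

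Between gates, the pathway genes were read against the shares of all tested genes called higher and lower. In cycling over differentiated cells, where these shares were 4.90% and 2.59%, 6 of 57 pathway genes were higher, 5 of them crypt base genes (Slc12a2, Olfm4, Hopx, Nfib and Kcne3) and 1 the cyclin Ccnd1, with log2 ratios of 3.07 in germ-free and 2.10 in antibiotic cells. Aldh1a1 was lower, at -1.53 and -4.39. None of the 10 receptors, 12 destruction complex genes and transducers, and 9 TCF genes tested was called. In goblet over differentiated cells, with shares of 3.71% and 3.11%, 5 of 56 were higher, among them the receptor Ror2 (log2 ratios 3.35 in germ-free and 4.16 in antibiotic cells) and the ErbB inhibitor Lrig1 (1.53 and 2.85), and Prom1 and Aldh1a1 were lower. In distal over proximal cells, with shares of 2.82% and 2.48%, 4 of 54 were higher, among them Ror1 (2.16 and 3.09) and Hopx (1.71 and 3.20), and 4 were lower, among them Prom1 (-2.64 and -3.57) and the co-repressor Tle3 (-2.39 and -1.30). Apart from the genes with the most UMI in each list and those past 2-fold between conditions, the pathway genes of this paragraph were chosen after their values were seen.

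Profiles of log2(CPM + 1) over 25 pairs of gate and cell set gave the genes most like 4 members, among 7145 genes with at least 500 UMI. These profiles share cells and depth within a set, so the correlations are descriptions. Axin2 was most like Rcc2 (Pearson r = 0.95), followed by Mcc (0.90), Srsf4, Pds5b and Soat1 (0.89 each). Sox9 was most like Klf12 and Naaladl2 (0.91 each), then Upf3b, Myb and Sorbs2 (0.90 each). Lgr5 was most like Carmil1, Tiam1, Ddx10 and Smg5 (0.85 each) and Nop58 (0.84). Cd44 had other neighbours, Rph3al (0.93), Brf1 and Odf2l (0.90 each), Lrrc8d (0.89) and Tmco4 (0.88). Among the members themselves, the pairs with the highest r were Znrf3 with Ephb2 (0.90), Axin2 with Rnf43 (0.89) and Lgr5 with Smoc2 (0.84).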

How the data were processed

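The authors deposited a matrix of natural log values with 32285 gene rows and 4183 cell columns. From the values, each is ln(1 + 10000 × UMI / total UMI of the cell), and all 9481333 nonzero values gave whole UMI counts within 0.01, so counts were used. The submitters' processing notes list Cell Ranger 7.0.0, kallisto, bustools and mm10, with no role for any. Cell filters and counting strand were not given in the sources used here.

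UMI were summed per condition, cell set and gate and scaled to CPM by total UMI. CPM have exact Poisson, ratios conditional binomial and shares Clopper-Pearson 95% intervals. They cover counting error only. A condition is 1 pool, so there is no test and no p-value. Log2 ratios use CPM + 1, which understates changes of low genes. Genes needed 100 UMI and gates 20 cells per set.

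The members and lists were chosen with earlier results of these data known. All members are named, with the 5 genes most like each of Lgr5, Axin2, Sox9 and Cd44, and, of each pathway list, the 3 genes with the most UMI and any 2-fold condition call. Gate levels were read from the distribution of the marker sums. Dropping 837 shallower barcode copies, the gate without Sycn and the Scrublet score limit of 0.25 were chosen after seeing the data. Scrublet marked 13 of 3346 cells (0.389%) as doublets, which were kept. Of the distal markers, Prac1 is not among the matrix rows. Cells within 0.8 to 1.25 times a gate level numbered 66 for goblet, 91 for cycling, 348 for proximal and 186 for distal markers.

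GENCODE vM21 symbols matched 31424 of the 32285 genes. The calls and ratio intervals were run on simulated Poisson counts. These hold no spread between cells beyond counting error, so the run does not bear on that spread. Scanpy 1.11.5, SciPy 1.17.1, NumPy 2.4.6 and pandas 2.3.3 ran under Python 3.11.15, and matplotlib 3.10.9 drew the figures.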

Additional observations from a re-analysis of the deposited data

How the results depend on the processing

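Of 2120 log2 ratios recomputed under the alternatives, 8 belonged to a called result and changed sign. Of the rest, 1877 stayed within their counting interval and 235 moved beyond it. Sign changes of uncalled ratios were not counted. Ascl2 over all cells, for example, went from 0.18 to -1.20 without 1 cell set, inside its interval. Over all cells, Lgr5 had log2 ratios of -0.60 with cells thinned to 1000 UMI, -0.09 with equal gate shares and -0.41 with per-cell means, and Smoc2 of -0.09, -0.15 and -0.52 in that order. In germ-free distal over proximal cells, Axin2 was at -2.06 without Sycn in the gate and Znrf3 at -0.84 with thinning. The number of members higher in germ-free cells, 3, was 1 with thinning, 0 with equal gate shares and 1 with per-cell means, and 3 to 4 without 1 cell set. The number lower, 0, was 4 under each of these 3 alternatives, and 0 to 3 without 1 cell set.

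Members called higher in cycling cells numbered 5, and 1 with thinning, 8 with cells of at least 1000 UMI and at most 15% mitochondrial UMI, 8 with doubled gate levels, 8 without Sycn, and 5 to 8 without 1 cell set. In goblet cells they numbered 1, and 0 with thinning, halved gate levels or per-cell means, 2 without the gene filter or without cells marked by Scrublet, 3 with the strict cell filter or without Sycn, and 1 to 4 without 1 cell set. In distal cells they numbered 3, and 0 with thinning or halved gate levels, and 5 with the strict cell filter. Without Sycn the number was 0 because no set held 20 distal cells, so this number says nothing about the calls. The log2 ratios of whole conditions did depend on Sycn. Over all comparisons, 28 moved beyond their counting interval without it, and Axin2 changed sign in germ-free distal over proximal cells, as given above. Thinning leaves fewer members with 100 UMI, and the strict filter fewer shallow cells. The cause of the other changes was not tested. Without dropping barcode copies, these counts were the same as with it. Germ-free depth limits all within-gate values. No paired analysis was possible because each condition was 1 pool and the cell set numbers do not match animals across conditions.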
